A study of Mus musculus with 6 samples.

Results

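The 44 germline and meiosis genes described here were chosen by gene symbol as genes of primordial germ cells, meiosis and the piRNA pathway that the polycomb complex PRC1.6 is known or thought to silence. All 44 have a row among the 24391 genes of the count tables. RNA was sequenced from mRPMaxKO, a mouse line derived from a lung tumour of RPMax-/- genotype, where RP stands, as background on this small cell lung cancer model, for the deleted Rb1 and Trp53 genes. Its strain is given as 129/SvJ and C57BL/6. The control group (3 libraries) and the MAX restored group (3 libraries) share that genotype, a puromycin-selected polyclonal population with a doxycycline-inducible lentiviral vector, fewer than 20 passages, and a protocol with 4 days of doxycycline. The labels do not say what vector the control cells carried or whether they also received doxycycline. Nor do they tie replicates to separate cultures: p-values here cover only the variation among these libraries, possibly a technical one. Values by library are given in the order of replicates 1, 2 and 3, controls first. One tumour-derived line was used, and these are tumour cells, not germ cells.

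Germ cells use a set of genes that other tissues keep off. In embryonic stem cells and somatic cells, PRC1.6 sits at many of their promoters. Its subunits MAX and MGA bind E-box and T-box sequences and its subunit E2F6 binds E2F sequences, while L3MBTL2, PCGF6 and the RING1 enzymes modify and compact the chromatin there. DNA methylation and histone H3 lysine 9 methylation hold many of the same promoters silent. MAX is also the partner that MYC proteins need for binding to E-boxes, so putting MAX back supplies both kinds of complex.

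Library totals lay between 10046899 and 11925909 counts. Max itself was at 63.5 ± 2.47 CPM in the controls and at 1326 ± 18.7 CPM with MAX restored (SD, n = 3), where CPM is counts relative to library size after TMM scaling. The restored gene thus goes with the labels, and control reads on Max were not resolved by exon here. Control 1 stood apart from the other controls. Compared gene by gene with controls 2 and 3, it gave a chi-square over degrees of freedom of 8.91 and 10.2, where every other pair within a group lay between 1.24 and 1.505. Of its counts, 0.996% fell on Rn45s, against at most 0.187% in any other library. Rn45s was kept in the chi-square, so these are not separate signs, and the chi-square without Rn45s was not computed. The neuroendocrine markers were abundant in all libraries (summed 8631 to 9029 CPM over 8 genes). Immune markers stayed between 1.48 and 3.42 CPM summed over 6 genes, with Cd3e at 0 in every library. Summed fibroblast markers (8 genes, Lum at 0 in all) went from 4.12 to 4.55 CPM in the controls to 5.88 to 7.31 CPM with MAX restored. Only 2 of the 8 had enough counts for the test described below, and both were higher, beside 31.2% of all genes tested. Summed endothelial markers (5 genes, nearly all Vwf, with Cdh5 at 0 throughout) were between 527.9 and 581.3 CPM against 418.3 to 453.3 CPM. Summed markers of Sertoli and Leydig cells, the somatic cells of the testis (8 genes, nearly all Star, with Wt1, Gata4 and Hsd3b1 at 0), were between 11.6 and 13.6 CPM against 16.01 to 17.96 CPM. Summed lung epithelial markers (7 genes) were between 1384 and 1508 CPM against 2009 to 2104 CPM. They did not move together. Of the 6 tested, 4 were higher, 1 (Sftpc) lower and 1 (Epcam) did not pass, beside 31.2% higher and 32.3% lower over all genes tested. The part of these shifts in the results below was not tested. In a bulk sample, fewer cells that make an RNA and less of it per cell cannot be told apart.

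Most of the germline genes had few or no reads in either group, and a few were expressed as strongly as ordinary cellular genes. No count was seen in any library for 9 of the 44. These were Stra8, which starts meiosis in response to retinoic acid, the chromosome axis gene Hormad2, the synaptonemal complex genes Syce1 and Tex12, the piRNA pathway genes Mael, Piwil1 and Asz1, the testis tubulin gene Tuba3b, and Dppa3, a marker of oocytes and primordial germ cells. A library without a count can still hold up to 3 counts' worth of a transcript, between 0.252 and 0.299 CPM here (counting error only). Another 11 genes had almost no counts, defined as under 10 over the 6 libraries together. They were Dazl (7 counts in all), Taf7l and Mov10l1 (5 each), Tuba3a (3), Smc1b, Rec8 and Msh4 (2 each), and Hormad1, Stk31, Rnf17 and Pou5f1 (1 each). The near-identical tubulin genes Tuba3a and Tuba3b can lose reads that match both, so their counts are uncertain. A further 10 genes had between 10 and 54 counts, too few for the filter applied before the test. The remaining 14 were tested. Genes under 10 counts made up 45.5% of the 44, beside 40.1% of all annotated genes, so near-silence was about as common here as in the annotation at large.

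**Figure D1:**
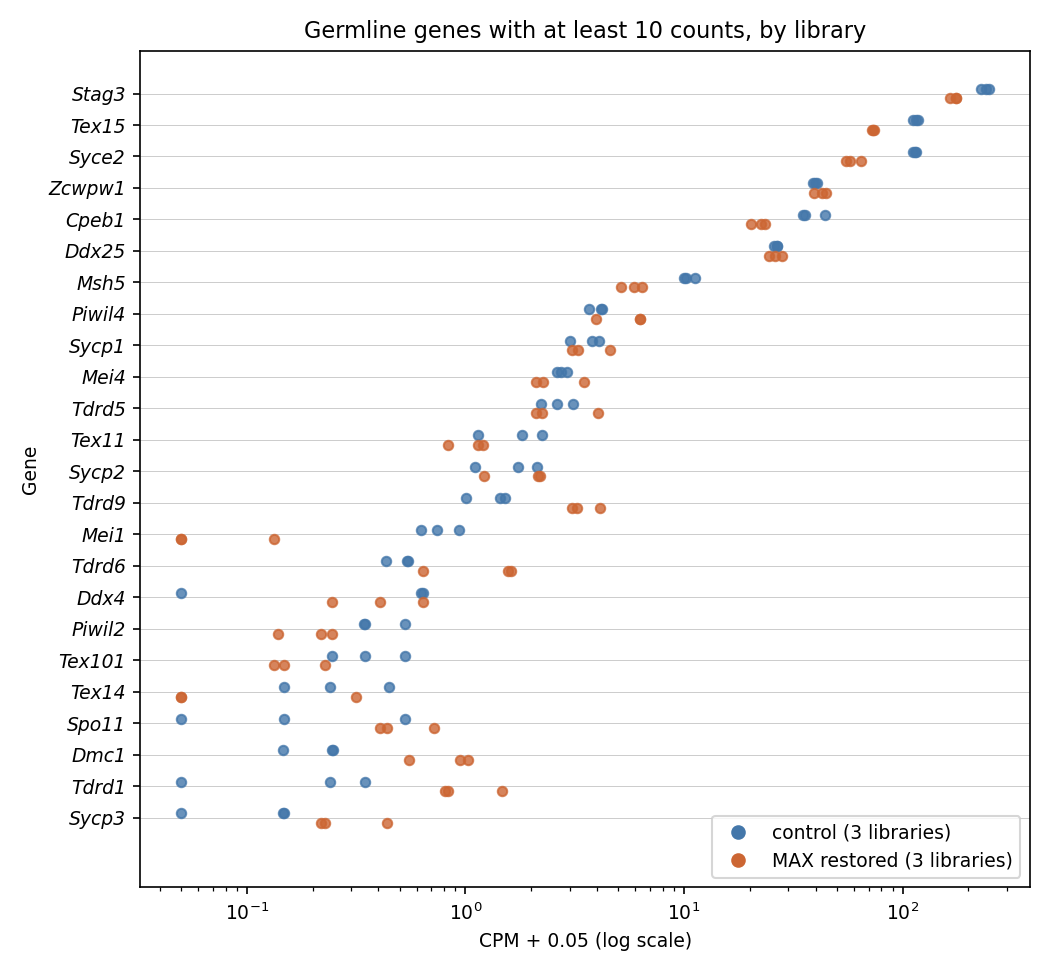
CPM plus 0.05 on a log axis for the 24 germline genes with at least 10 counts in all, 1 point per library, controls in blue and MAX restored libraries in orange. Stag3, Tex15, Syce2, Cpeb1, Msh5, Mei1, Piwil2 and Tex101 show every orange point left of every blue one, and Tdrd9, Tdrd6, Tdrd1, Dmc1 and Sycp3 the reverse; points at 0.05 are libraries without a count.

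Levels compared per length put Syce2 and Stag3 high in the whole transcriptome. RPKM, the counts relative to exon length and library size, were 82.8 for Syce2, 56.5 for Stag3, 17.9 for Zcwpw1, 15.7 for Ddx25, 13.6 for Tex15 and 12.3 for Cpeb1 as control means. Averaged over all libraries, Syce2 lay at percentile 94.98 and Stag3 at percentile 92.8 of all annotated genes by RPKM. Msh5 followed with a control mean of 3.56 RPKM, then Piwil4 with 1.51 and Sycp1 with 1.04. The other tested genes, Mei4, Tdrd5, Tex11, Sycp2 and Tdrd9, were under 1 RPKM in both groups. Stag3, Syce2 and Tex15 together took between 76.9% and 77.8% of all germline gene counts in the controls and between 71.1% and 71.6% with MAX restored.

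Between MAX restored and control libraries, 5 of the 14 tested germline genes fell and 2 rose, by edgeR's quasi-likelihood test with a Benjamini-Hochberg adjusted p under 0.05 across the 12664 genes in the fit. In that fit 32.3% of genes were lower, 31.2% higher and 63.5% changed either way, so the germline genes passed no more often than the transcriptome at large. Controls and MAX restored libraries were fully separated in CPM for 6 of the 14, beside 67.1% of the genes in the fit. The median log2 fold change was -0.03 for the 14 and -0.0036 for the fit as a whole. The summed level of the 44 genes was 590.4, 603.9 and 614.1 CPM in the controls against 424.2, 425.5 and 425.99 CPM with MAX restored. The difference lay mostly in the most abundant genes. Without Stag3, Syce2 and Tex15 the sum was between 131.9 and 141.6 CPM in the controls and between 120.8 and 122.9 CPM with MAX restored. The number of the 44 genes with any count did not separate the groups, at 26, 29 and 23 in the controls against 29, 27 and 26, and it was the same after thinning to equal depth. In the plot of log2 fold changes the tested genes are ordered from the deepest fall to the largest rise.

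**Figure D2:**
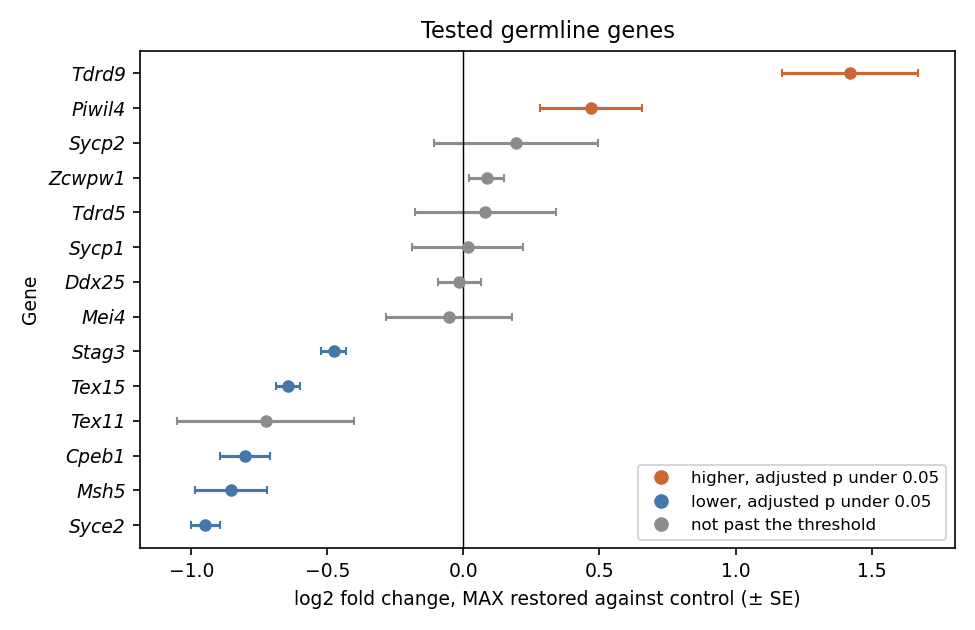
Log2 fold change of MAX restored against control with its standard error for the 14 tested germline genes, from edgeR's quasi-likelihood fit. Syce2, Msh5, Cpeb1, Tex15 and Stag3 (blue) passed the threshold as lower, between -0.95 and -0.48, and Piwil4 and Tdrd9 (orange) as higher, at 0.47 and 1.42.

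Among the 7 of the 44 genes that belong to meiotic cohesin and the chromosome axis, Stag3 was the only one above 1 RPKM. STAG3 is the cohesin subunit particular to meiosis, where it joins the kleisins REC8 or RAD21L and SMC1B in the ring that holds sister chromatids. Stag3 had 2316, 2502 and 2519 counts in the controls against 1968, 1966 and 1789. All 3 MAX restored libraries were lower, and in CPM the groups did not overlap. Stag3 fell 1.39-fold, from 239 ± 10.7 to 172 ± 5.61 CPM (SD, n = 3), or -0.48 on the log2 scale (SE 0.05, adjusted p = 2.17e-08 in edgeR's test). Stag3 spans chromosome 5 of mm9 from 138721737 to 138753621, plus strand, with 34 distinct exons in the annotation. Its meiotic partners Smc1b and Rec8 had 1 count in each group. Sycp2, which builds the axis together with SYCP3, had 21, 11 and 17 control counts against 25, 24 and 12, with overlapping groups and a log2 fold change of 0.19 (SE 0.30, adjusted p = 0.595 in edgeR's test). Sycp3 held 2 control counts against 8, a ratio of 3.68 whose 95% exact binomial interval, for counting error only, runs from 0.734 to 35.6. It shares 80 exon bases, 7.13% of its length, with Chpt1 on the opposite strand, and reads there cannot be told apart. Hormad1, a HORMA-domain protein of unsynapsed axes, had 1 control count and none with MAX restored.

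Of the synaptonemal complex, the zipper between paired meiotic chromosomes, the central element gene Syce2 was abundant and fell most. SYCE2 forms long fibres with TEX12, which had no count in any library. Syce2 had 1155, 1203 and 1133 counts in the controls against 766, 617 and 586. The lowest control was well above the highest MAX restored library in CPM, 112 against 64.3. Syce2 fell 1.93-fold, from 114 ± 1.55 to 58.8 ± 4.87 CPM (SD, n = 3; log2 -0.95, SE 0.05, adjusted p = 8.22e-12 in edgeR's test). It lies on chromosome 8 of mm9 from 87396010 to 87411345, plus strand, with 7 distinct exons. Its end overlaps the span of Gcdh on the other strand without sharing exon bases, and Gcdh rose 1.55-fold (log2 0.63, SE 0.07). Of the 50 tested genes around Syce2, 25 on either side in chromosome order, 36 were higher and 5 lower. Over all genes tested, 31.2% were higher and 32.3% lower. The median of the 50 was 0.33, so Syce2 went against its neighbourhood. Around the other germline genes that passed, the medians were smaller in size, between -0.06 for Cpeb1 and 0.13 for Stag3. Sycp1, the transverse filament of the zipper, had 30, 42 and 38 control counts against 54, 34 and 33, with a log2 fold change of 0.02 (SE 0.20, adjusted p = 0.9504 in edgeR's test).

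Of the 9 recombination genes 5 were tested, of which 2 fell and none rose, beside 32.3% lower over all genes tested. Tex15 acts in the repair of meiotic breaks and in piRNA-directed silencing. It had 1189, 1202 and 1122 counts in the controls against 880, 813 and 749, and the groups did not overlap in CPM. Tex15 fell 1.56-fold, from 114 ± 3.05 to 73.1 ± 0.712 CPM (SD, n = 3; log2 -0.64, SE 0.04, adjusted p = 2.00e-10 in edgeR's test), on chromosome 8 of mm9 from 34681016 to 34696057. The 50 tested genes around it, 25 on either side in chromosome order, had a median of -0.01. Msh5 encodes a MutS protein that stabilises crossover intermediates as a pair with MSH4. Msh5 had 101, 117 and 103 control counts against 76, 57 and 60, without overlap in CPM, while Msh4 had 1 count in each group. Msh5 fell 1.81-fold, from 10.4 ± 0.671 to 5.77 ± 0.654 CPM (SD, n = 3; log2 -0.85, SE 0.13, adjusted p = 1.24e-05 in edgeR's test), on chromosome 17 of mm9 from 35165550 to 35183690, minus strand.

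The 3 other tested recombination genes did not pass. Zcwpw1, a reader of the histone marks that PRDM9 writes at recombination hotspots, had 395, 413 and 411 control counts against 511, 439 and 455 (log2 0.09, SE 0.06, adjusted p = 0.250 in edgeR's test). It shares 468 exon bases, 21.1% of its length, with Pilra on the opposite strand, which had 6 counts in all. Mei4, needed to make meiotic breaks, had 29, 28 and 26 control counts against 41, 25 and 21 (log2 -0.05, SE 0.23). Tex11, an X-linked crossover factor, had 18, 23 and 11 control counts against 13, 13 and 8. Its log2 fold change of -0.73 (SE 0.32) missed the threshold (adjusted p = 0.0569 in edgeR's test). It passed without control 3 (0.0169) and without the low-count filter (0.0494), the latter in a fit with more lenient p-values described below.

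Mei1, Dmc1 and Spo11 lay below the filter, and their contrasts rest on few reads. Mei1, also needed for break formation, had 9, 6 and 7 counts in the controls against 1, 0 and 0. Every control exceeded every MAX restored library, and the control level was 23.9 times the MAX restored one with a 95% counting interval from 3.87 to 987. Dmc1, the recombinase of meiotic strand exchange, went the other way, with 2, 1 and 2 control counts against 6, 10 and 10. Its ratio of MAX restored to control was 4.78 (95% counting interval 1.81 to 15.95), again without overlap. Spo11, the enzyme that cuts DNA in meiosis, had 1, 5 and 0 control counts against 8, 4 and 4, with an interval from 0.912 to 7.65 that includes equality. A further fit took all 18279 genes with a count, without the low-count filter. In it Mei1 was lower (adjusted p = 3.10e-05) and Dmc1 higher (0.00236) by edgeR's test. The p-values of that fit are far more lenient than those of the filtered fit. For Syce2, at -0.96 (SE 0.05) on the log2 scale, it gave an adjusted p of 1.27e-69, against 8.22e-12 with the filter. They matched a normal curve, with next to no allowance for uncertainty in the spread among libraries.

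Of the 12 genes grouped under the piRNA pathway, which guards the germline genome against transposons, and tudor proteins, 3 were tested, of which 2 rose and none fell, beside 31.2% higher over all genes tested. Tex15, grouped with recombination, and Tdrkh, a tudor gene of the second germline list, also serve this pathway and fell. Henmt1, Pld6 and Tdrd12, further genes of the pathway, did not pass under any alternative run. Tdrd9 encodes a tudor-domain helicase that works with PIWIL4 and MAEL in fetal germ cells. It had 15, 10 and 14 counts in the controls against 38, 34 and 42, with no overlap. Tdrd9 rose 2.68-fold, from 1.27 ± 0.277 to 3.44 ± 0.577 CPM (SD, n = 3; log2 1.42, SE 0.25, adjusted p = 5.55e-05 in edgeR's test), on chromosome 12 of mm9 from 113209770 to 113307065, plus strand. Piwil4, the nuclear PIWI protein, had 42, 38 and 42 control counts against 74, 70 and 40. The third MAX restored library lay within the range of the controls in CPM. Piwil4 rose 1.38-fold (log2 0.47, SE 0.19, adjusted p = 0.0353 in edgeR's test), a call that was lost with DESeq2 (adjusted p = 0.104), with limma voom (0.0601), without control 2 (0.105) and without MAX restored 1 (0.152) or 2 (0.144). Tdrd5 had 31, 27 and 22 control counts against 26, 45 and 21, with a log2 fold change of 0.08 (SE 0.26, adjusted p = 0.799 in edgeR's test).

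The tudor-domain genes Tdrd1 and Tdrd6, whose proteins bind PIWI proteins in germ granules, were among the genes below the filter. Tdrd1 had 0, 2 and 3 control counts against 9, 16 and 8, a ratio of 6.07 (95% counting interval 2.36 to 19.9). Tdrd6 had 5, 4 and 5 control counts against 7, 17 and 16, a ratio of 2.63 (1.40 to 5.23). Every MAX restored library was above every control for both genes. Without the low-count filter both were higher by edgeR's test (adjusted p = 0.000114 for Tdrd1 and 0.00508 for Tdrd6). These p-values come from the more lenient unfiltered fit. The call for Tdrd6 was lost with DESeq2 (0.0658), without control 2 (0.0511) and without MAX restored 2 (0.0566) or 3 (0.0644). Piwil2 had 3, 5 and 3 control counts against 2, 1 and 2, and its interval from 0.114 to 1.31 includes equality. In that unfiltered fit 5 of the 35 germline genes with a count were higher and 7 lower, beside 22.6% and 23.3% of all genes in it (45.9% either way). The groups did not overlap for 14 of those 35, beside 50.7% of all genes.

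Among the regulators of germ cell RNA, Cpeb1 fell and Ddx25 did not pass. CPEB1 controls polyadenylation and translation of stored mRNA in oocytes and also acts in neurons. Cpeb1 had 362, 366 and 448 control counts against 240, 262 and 231, and the groups did not overlap in CPM. Cpeb1 fell 1.74-fold, from 38.3 ± 5.20 to 22.0 ± 1.67 CPM (SD, n = 3; log2 -0.80, SE 0.09, adjusted p = 2.57e-07 in edgeR's test), on chromosome 7 of mm9 from 88491912 to 88599644, minus strand. Ddx25, a testis RNA helicase, had 261, 279 and 269 control counts against 291, 313 and 266, a log2 fold change of -0.01 (SE 0.08). Ddx4, the helicase VASA that marks germ cells, had 6, 6 and 0 control counts against 7, 4 and 2, a ratio of 0.997 (95% counting interval 0.419 to 2.39). Dazl, an RNA-binding protein of the germline, had 6 control counts against 1, with an interval from 0.00333 to 1.26. Of the remaining testis genes, Tex101 had 10 control counts against 4 and Tex14 had 7 against 3, and both intervals include equality (0.0842 to 1.28 and 0.0658 to 1.73).

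Several of the expressed germline genes have close relatives that serve all cells, and Stag3 and Cpeb1 held a smaller share of their families in every MAX restored library than in any control. STAG1 and STAG2 are the cohesin subunits of mitotic cells. Stag3 made up 49.5%, 53.3% and 54.8% of the summed RPKM of the 3 STAG genes in the controls against 41.5%, 42.6% and 42.5% with MAX restored. It was thus the most abundant STAG gene per length in the controls, at 56.5 ± 2.53 RPKM beside 37.6 ± 2.12 for Stag2 and 13.5 ± 1.36 for Stag1 (SD, n = 3). With MAX restored, Stag3 at 40.6 ± 1.33 RPKM and Stag2 at 40.4 ± 0.432 RPKM could not be ranked beyond their spread. Cpeb1 took 23.2%, 23.4% and 28.5% of the CPEB family in the controls and 11.3%, 13.1% and 12.5% with MAX restored. Its relatives Cpeb2, Cpeb3 and Cpeb4 all passed as higher, Cpeb4 by 1.39-fold. The call for Cpeb3 held in 13 of 15 other settings, those for Cpeb2 and Cpeb4 in all 15. The log2 ratio of each gene to the rest of its family differed by -0.60 for Stag3 and -1.25 for Cpeb1 between MAX restored and control libraries. Each gave a two-sided exact permutation p of 0.1, the smallest that 3 against 3 libraries allow, and 0.1 after adjustment over the 2 families. This p cannot pass 0.05. Both families were taken for a gene already called lower with separated groups in the same libraries, so it adds no support to those calls. Of 19 somatic relatives examined, all tested, 8 were higher and 3 lower, beside 31.2% and 32.3% of all genes tested, and their median on the log2 scale was 0.08. The small rises of Stag1 (log2 0.16) and Stag2 (0.11) held in 12 and 8 of 15 other settings. Cohesin genes did not all rise. Smc1a was lower in all 15 other settings, between -0.65 and -0.60 on the log2 scale. Rad21 passed in 0 and Smc3 in 1 of them.

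**Figure D3:**
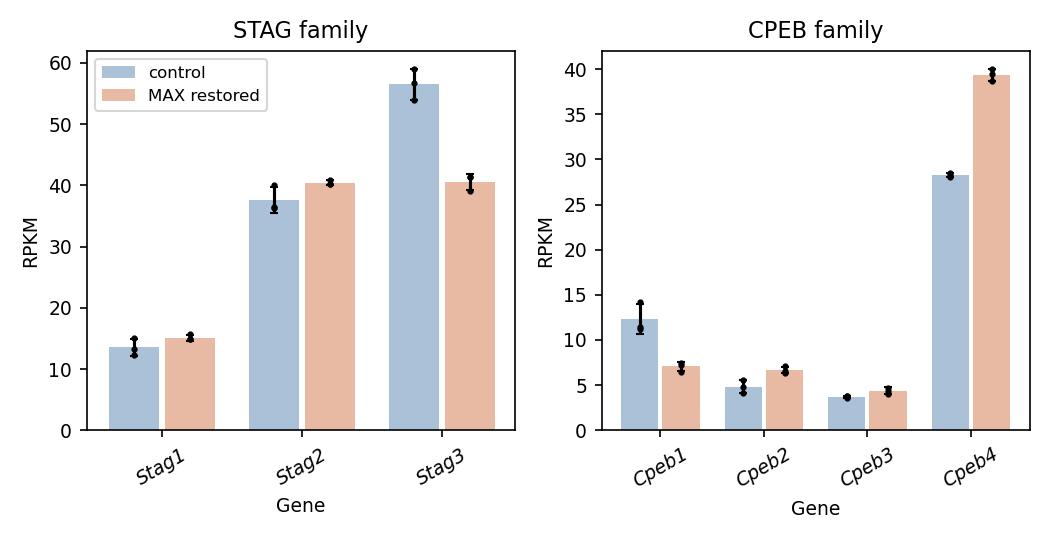
RPKM of the STAG and CPEB genes in control (blue) and MAX restored (orange) libraries, with bars for means, error bars for SD over 3 libraries and a point per library. Stag3 and Cpeb1 are lower with MAX restored, and Cpeb2, Cpeb3 and Cpeb4 are higher.

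The promoters of the germline genes carried E-box and E2F sequences more often than promoters at large. Windows of 300 bases, from 250 before to 50 after each annotated start, were taken from the RefSeq table of GRCm38.p6, which held 37 of the 44 genes. Tex15, Tex11, Spo11, Piwil2, Tdrd6, Rnf17 and Dppa3 had no entry. The palindromic E-box CACGTG, which MAX dimers bind, was present in 16 of the 37 genes (43.2%), beside 8.09% of all 27025 genes in the table and 11.9% of the 9671 of them tested here. The E2F sequence GCGGGAA, searched on both strands, was present in 12 of 37 (32.4%), beside 5.29% of all genes and 10.1% of those tested. Both occurred together in 6, namely Stag3, Syce2, Sycp3, Hormad1, Tex12 and Ddx4. In the second list, of other germline genes, the E-box was in 8 of 55 genes (14.5%) and the E2F sequence in 9 of 55 (16.4%). The T-box sequence AGGTGTGA, on either strand, was found in Sycp3 alone, beside 1.48% of all genes. No matches of different motifs overlapped in the germline windows. The median ratio of observed to expected CpG was 0.713 in the germline windows, beside 0.384 over all windows and 0.756 over those of all genes tested. Among windows with a ratio of at least 0.6, the E-box was in 56.0% of 25 germline genes and in 11.9% of 10366 genes. A match describes letters in a window and is no evidence of binding, and the list was drawn up from genes known for such control.

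**Figure D4:**
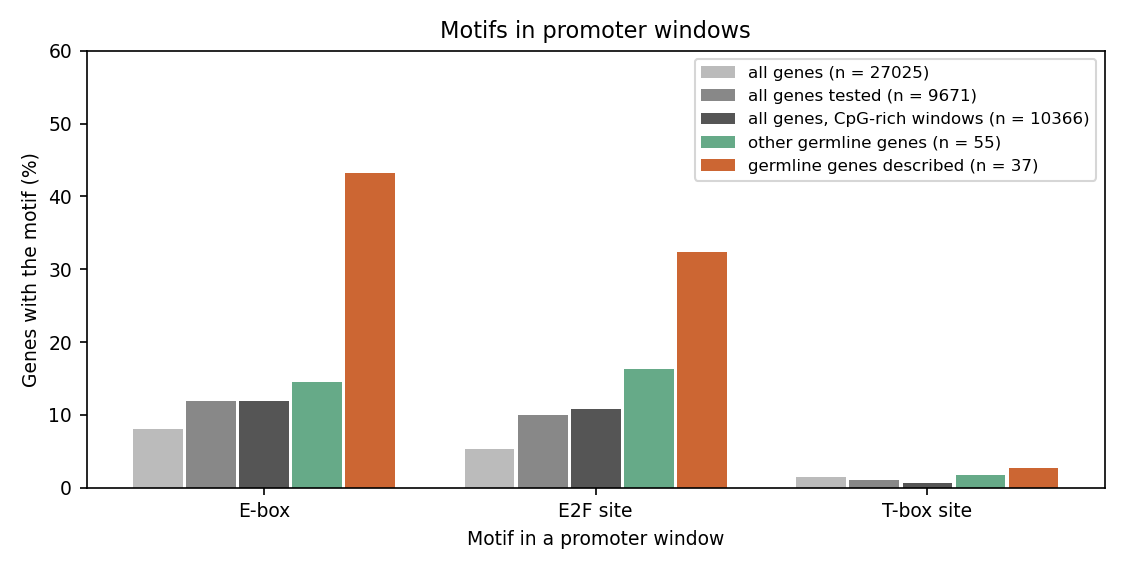
Share of genes with each motif in at least 1 promoter window, for all genes, all genes tested, all genes with CpG-rich windows, the other germline genes and the 37 germline genes described. The orange bars reach 43.2% for the E-box and 32.4% for the E2F sequence, where the grey bars stay at or under 11.9% and the green bars of the other germline genes stand at 14.5% and 16.4%.

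The E-box stood in 6 of 12 tested genes with a window and in 10 of 25 that had too few counts for the test. Of the genes that fell, Stag3 and Syce2 hold both sequences, Cpeb1 an E-box and Msh5 an E2F match. Of those that did not pass, Ddx25 and Sycp1 hold an E-box and Tdrd5 an E2F match. Whether motif content differs with the response was not tested. Below are the windows of 4 genes that changed (Stag3, Syce2, Msh5 and Tdrd9) and 2 with too few counts for the test. The latter are Sycp3, with 10 counts in all, and Hormad1, with 1. These windows are shown because they carry the motifs among both kinds of gene. Each runs 5′ to 3′ along the gene's strand over the first 255 bases of its window, with E-box, E2F and T-box matches in capitals.
Stag3, chr5:138280259-138280513, plus strand: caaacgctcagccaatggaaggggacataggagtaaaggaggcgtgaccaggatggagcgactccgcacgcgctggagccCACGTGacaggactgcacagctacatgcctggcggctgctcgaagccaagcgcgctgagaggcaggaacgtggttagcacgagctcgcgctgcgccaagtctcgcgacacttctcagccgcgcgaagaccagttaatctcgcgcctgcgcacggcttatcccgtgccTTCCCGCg
Syce2, chr8:84872008-84872262, plus strand: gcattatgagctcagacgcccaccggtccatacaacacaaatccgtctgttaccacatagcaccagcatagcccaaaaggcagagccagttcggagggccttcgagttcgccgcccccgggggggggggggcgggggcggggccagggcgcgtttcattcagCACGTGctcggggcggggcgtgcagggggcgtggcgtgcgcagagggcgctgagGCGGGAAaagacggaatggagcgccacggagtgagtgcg
Msh5, chr17:35046618-35046872, minus strand: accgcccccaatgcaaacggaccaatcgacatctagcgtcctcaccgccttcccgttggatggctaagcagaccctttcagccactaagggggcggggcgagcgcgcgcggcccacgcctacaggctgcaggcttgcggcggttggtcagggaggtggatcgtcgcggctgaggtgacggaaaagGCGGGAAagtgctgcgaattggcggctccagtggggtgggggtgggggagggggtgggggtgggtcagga
Tdrd9, chr12:111971309-111971563, plus strand: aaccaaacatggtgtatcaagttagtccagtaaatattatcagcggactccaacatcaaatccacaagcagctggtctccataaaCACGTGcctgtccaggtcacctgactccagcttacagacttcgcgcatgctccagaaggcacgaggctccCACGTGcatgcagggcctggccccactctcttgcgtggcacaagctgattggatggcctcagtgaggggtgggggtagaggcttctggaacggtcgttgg
Sycp3, chr10:88459337-88459591, plus strand: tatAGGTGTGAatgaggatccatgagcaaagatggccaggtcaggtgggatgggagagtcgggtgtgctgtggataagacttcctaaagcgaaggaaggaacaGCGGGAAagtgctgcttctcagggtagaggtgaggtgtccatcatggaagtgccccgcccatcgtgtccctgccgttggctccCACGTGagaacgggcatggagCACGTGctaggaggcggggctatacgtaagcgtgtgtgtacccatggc
Hormad1, chr3:95559427-95559681, plus strand: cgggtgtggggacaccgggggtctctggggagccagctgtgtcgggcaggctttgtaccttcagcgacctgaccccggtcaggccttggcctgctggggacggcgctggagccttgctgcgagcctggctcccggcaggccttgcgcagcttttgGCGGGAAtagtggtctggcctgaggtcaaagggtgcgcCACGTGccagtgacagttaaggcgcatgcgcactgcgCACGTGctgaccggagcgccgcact
Syce2, which fell, and Hormad1, with 1 count in all, both hold an E-box and the E2F sequence close to the start. Counted from the start, the E-box begins at base -88 and the E2F match at -34 in the Syce2 window shown, while the window of its other annotated start has neither. In Hormad1 E-boxes begin at -57 and -20 and the E2F match at -95. Stag3 has its E-box at -170 and an E2F match on the reverse strand across the start, from -3. Tdrd9, which rose, has a pair of E-boxes, at -165 and -95, and no E2F match, whereas Msh5, which fell, has an E2F match at -65 and no E-box. Cpeb1 has its E-box after the start, from base 25. Tdrd1 has 1 E-box, at -11 or -77 from 2 of its 3 annotated starts, and Piwil4, Dmc1 and Mei1 have none of the motifs in their windows.

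Other genes of germ cells came from a list of 69 that leaves out the 44 and was drawn up with earlier results of these data known. Of these, 65 were in the files and 22 were tested, of which 13 fell and 2 rose, beside 32.3% lower and 31.2% higher over all genes tested. The median log2 fold change was -0.46, beside -0.0036. Ccnb1ip1, a ubiquitin ligase of crossover sites, had 15, 15 and 14 control counts against 6, 8 and 3 (log2 -1.47, SE 0.37, adjusted p = 0.00182 in edgeR's test). Trip13, an AAA ATPase that removes HORMA proteins from meiotic axes and also serves the mitotic checkpoint, fell 1.99-fold, from 25.2 ± 0.919 to 12.6 ± 1.08 CPM (SD, n = 3). Rad21l, the meiotic kleisin that pairs with STAG3, fell 1.91-fold, from 31.7 ± 2.43 to 16.6 ± 1.49 CPM (SD, n = 3; adjusted p = 2.20e-08 in edgeR's test). Ccdc36, whose product IHO1 works with MEI4 in break formation, fell 1.93-fold, from 20.5 ± 1.84 to 10.6 ± 0.354 CPM (SD, n = 3). Psmc3ip and Mnd1, partners that assist DMC1, fell by 0.71 and 0.85 on the log2 scale, and Prdm9, which marks hotspots, by 0.38. The stem cell factor receptor gene Kit rose 1.78-fold, from 161.7 ± 1.35 to 288.4 ± 11.2 CPM (SD, n = 3), and Zbtb16, of spermatogonial stem cells, by 0.40 on the log2 scale. Kit and several of the others are expressed outside the germline too. Lin28a, an RNA-binding protein of pluripotent cells, fell 1.53-fold, from 83.8 ± 6.39 to 54.8 ± 0.319 CPM, and Prdm1, a specifier of primordial germ cells, fell 1.78-fold, from 5.93 ± 0.915 to 3.29 ± 1.02 CPM (SD, n = 3). Of the other pluripotency and germ cell regulators in the list, Nanog, Zfp42, Dppa2, Dppa5a, Utf1, Figla, Sohlh1 and Sohlh2 had no count in any library.

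**Figure D5:**
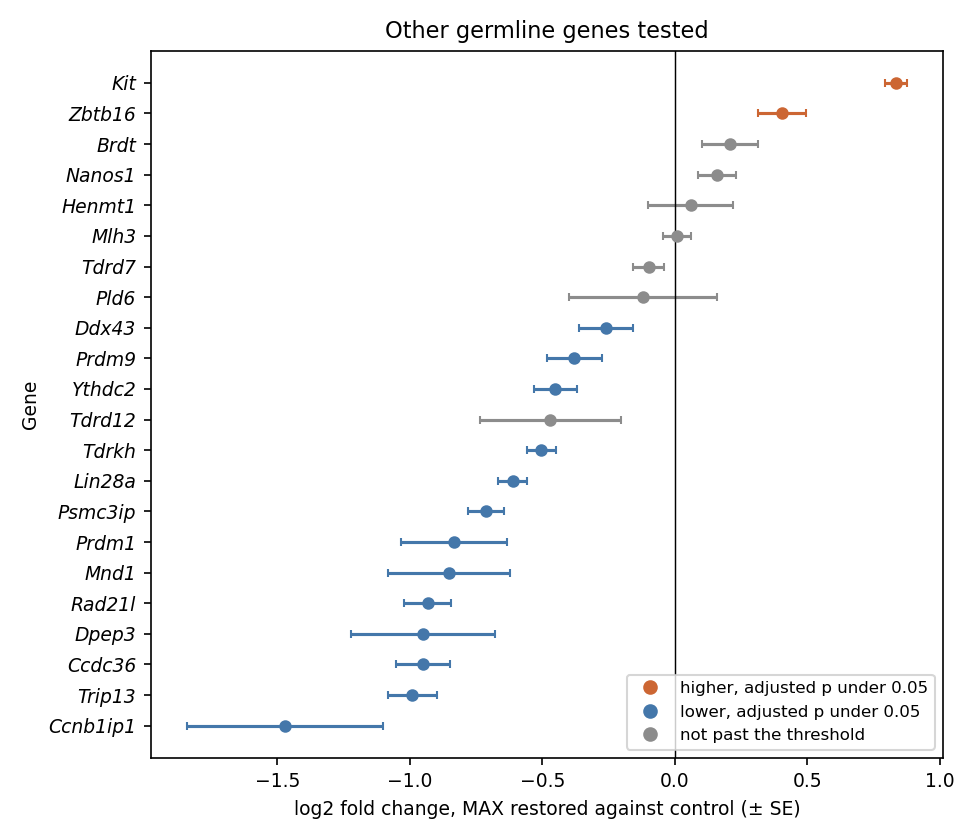
Log2 fold change of MAX restored against control with its standard error for the 22 tested genes of the second germline list. The 13 that passed as lower (blue) run from -1.47 for Ccnb1ip1 to -0.26 for Ddx43, and Kit and Zbtb16 (orange) passed as higher. The call for Ddx43 held in 9 of 15 other settings.

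The genes that encode the silencing machinery were expressed in both groups. Of the 14 PRC1.6 subunit genes, Max included, 3 were higher and 5 lower, beside 31.2% and 32.3% of all genes tested. E2f6, which gives the complex its E2F binding, was at 64.1 CPM in the controls and 63.7 CPM with MAX restored (log2 -0.01, SE 0.05, adjusted p = 0.878 in edgeR's test). Mga fell 1.26-fold and L3mbtl2 1.31-fold. Of 17 other genes that keep germline genes off, 10 fell and 3 rose, beside 32.3% lower and 31.2% higher over all genes tested (63.5% either way). Their median on the log2 scale was -0.12. Suv39h2, a histone H3 lysine 9 methyltransferase, fell 2.17-fold, from 17.9 ± 2.11 to 8.26 ± 0.375 CPM (SD, n = 3), and Kdm5c, an X-linked demethylase of histone H3 lysine 4, fell 1.54-fold, from 426.4 ± 5.56 to 276.7 ± 5.12 CPM. Uhrf1, the cofactor of maintenance DNA methylation, fell 1.41-fold. The de novo DNA methyltransferase gene Dnmt3a rose 1.35-fold, from 504.5 ± 9.73 to 680.8 ± 5.52 CPM, Trim28 rose 1.09-fold and Atf7ip 1.15-fold. Lower calls for Dnmt3b and Ehmt2 in that list, and for Yaf2 in PRC1.6, held in 4, 9 and 6 of 15 other settings.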

How the data were processed

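RNA was sequenced from 3 control and 3 MAX restored libraries, made from 500 ng of total RNA per the labels' protocols. Each library has a deposited table of unnormalised counts by gene symbol. Counting was done by the authors, per the file headers, with featureCounts 1.6.0 on the UCSC mm9 annotation, without strand and without options for reads that match several places or genes, so overlapping genes share or lose reads. The submitters' processing notes also name bcl2fastq 1.8.4 and STAR 2.5.2a. No further column of per-sample values was present.

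From these counts, genes were filtered with edgeR 4.0.16 (filterByExpr, minimum count 10), scaled by TMM and tested by its quasi-likelihood test, group only, two-sided, in R 4.3.3. Adjusted p-values are Benjamini-Hochberg over all 12664 genes tested, and the threshold was 0.05. A standard error is the absolute log2 fold change over the square root of F. RPKM used the gene lengths in the files. Intervals of count ratios are exact binomial at 95% and cover counting error only, since PCR copies were not marked by molecular identifiers. Gene coordinates are mm9 from the files, and promoter windows are GRCm38.p6 from RefSeq, used for sequence only. The code was tested on simulated data. The members and gene lists were chosen with earlier results of these data known. Every member is accounted for. Of the other lists, genes were named by smallest p in each direction, and further ones (among them Prdm1, Prdm9, Tdrkh, Mnd1, Zbtb16, E2f6, Uhrf1 and the genes at 0) were chosen after their values were seen. Alternatives covered scaling, filter, DESeq2 1.42.0, limma 3.58.1 (voom), the replicate number as a block, a threshold of 0.01, thinning to equal depth and leaving out each library. Some items of the lists are not reported here.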

Additional observations from a re-analysis of the deposited data

How the results depend on the processing

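The 5 falls (Syce2, Msh5, Cpeb1, Tex15, Stag3) and the rise of Tdrd9 kept their direction and call under every alternative run. Over all recomputed fold changes of tested germline genes, 206 kept direction and side of the threshold, 9 turned sign, 6 lost and 2 gained a call. The count of germline genes called higher, 2, became 1 with DESeq2, with limma voom and at a threshold of 0.01, and 5 with a minimum count of 5 or no filter, where more genes are tested. Leaving out 1 library gave between 1 and 3 (1 without MAX restored 2, where Piwil4 is lost) and between 5 and 6 called lower. Without the filter, an alternative base chosen after the data were seen, 5 called higher became 3 with DESeq2, and leaving out 1 library gave between 3 and 5. The somatic relatives called higher, 8, became 5 at a threshold of 0.01 and lay between 5 and 9 when a library was left out. The summed CPM of the MAX restored group, 425.2, became 429.0 with upper quartile factors and lay between 424.5 and 426.9 with a library left out. Signs turned only for genes that had not passed. With upper quartile factors Ddx25 was at 0.011 on the log2 scale. Leaving out 1 library moved Ddx25 from -0.060 to 0.039 (without MAX restored 1), Sycp2 from -0.040 (without control 2) to 0.42, Sycp1 from -0.19 (without MAX restored 1; -0.11 without control 1) to 0.14, Mei4 from -0.33 to 0.082 (without MAX restored 3; 0.052 without 2), and Tdrd5 from -0.29 (without MAX restored 2; -0.033 without control 3) to 0.24. The cause was not tested. Fitted with the replicate number as a block, 2 germline genes were higher and 5 lower, as without it. Same-numbered libraries did not deviate together (correlations of their deviations 0.004, 0.035 and -0.024), so the numbers were not taken as pairs. Depth limits 30 of the 44 genes, which lay under the filter.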

Other observations

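Below the filter, a few genes of the second germline list had counts that leaned one way. Boll, a relative of Dazl, had 2, 4 and 6 counts in the controls against 0, 0 and 2. Meiob, a single-strand binding protein of meiotic recombination, had 16, 9 and 7 control counts against 2, 7 and 6. Nanos2, a regulator of male germ cells, had 0, 1 and 0 control counts against 6, 2 and 0. In CPM the groups did not overlap for Boll and Meiob and did overlap for Nanos2, and these genes were picked after their values were seen. For Boll and Meiob the closest libraries of the groups tied in raw counts, so the separation rests on library size alone. Of all genes with a count, 50.7% were separated in CPM. Slc25a31, a testis adenine nucleotide carrier silenced by E2F6 in somatic cells, had 1 control count against 4.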
